A study of Homo sapiens with 6 samples.

Results

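The genes described here build and police the mitotic spindle: 58 names listed for the kinetochore, the spindle and the mitotic checkpoint. SGOL1 is the older symbol of SGO1, so the names stand for 57 genes. Members were taken as the genes of that list with an entry under their symbol in the deposited table of 15585 genes, which held 56 of them, and 54 of the 11844 genes with enough reads to be tested. The RNA came from U2OS, a human osteosarcoma cell line, in 3 libraries of cells transfected with control siRNA (siCTR) and 3 of cells transfected with siRNA against LSD1 (siLSD1), all collected 48 h after transfection. The sources do not say which LSD1 siRNA was used or whether the libraries of a group came from separate cultures, so the p-values measure the spread between these samples, which may be technical. LSD1 is a histone demethylase that removes methyl groups from lysine 4 of histone H3. The experiment asked whether its depletion altered the RNA of genes needed for DNA replication, and the mitotic genes are the other large set of genes that cycling cells express periodically.

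The kinetochore is the protein assembly on each centromere that captures spindle microtubules. Its inner layer sits on nucleosomes holding the histone variant CENP-A, and its outer layer holds the NDC80 complex, which grips the microtubule. Motor proteins of the kinesin family and mitotic kinases move and align the chromosomes, and the spindle checkpoint delays anaphase until every kinetochore is attached. Most of these genes are transcribed late in the cell cycle, and the cell cycle genes homology region (CHR) in their promoters is known as a binding site of the DREAM and MuvB complexes, which keep them silent in resting cells and activate them before mitosis.

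The libraries held 12513511 to 13561344 counted reads, and reads of KDM1A, which encodes LSD1, were 6140, 6493 and 6573 with siCTR and 1110, 1198 and 1246 in siLSD1. KDM1A fell by 2.44 on the log2 scale (SE 0.11, Benjamini-Hochberg adjusted p = 2.27e-07 in edgeR). Of the markers of a mesenchymal line, VIM stood at 731 to 880 CPM (read counts scaled to a common library size with edgeR's TMM method) and CDH2 at 43.6 to 57.9 CPM, whereas the bone markers SPARC and RUNX2 had at most 0.30 CPM in any library and COL1A1 had 9.07 to 14.9 CPM. The keratin genes KRT8 and KRT18, listed as epithelial markers, were at 809 CPM or more in every library, EPCAM was at 2.09 to 3.19 CPM, and CDH1 at 4.91 to 7.32 CPM in siCTR and 9.39 to 11.5 CPM in siLSD1. KRT5, KRT14, PTPRC and HBB had at most 0.37 CPM in any library, SNAP25 had 0.75 to 1.52 CPM and GFAP 0.32 to 1.31 CPM. Replicate 2 of siCTR stood apart from the other 5 libraries, since the chi-square of the counts per degree of freedom was 22.7 to 39.3 against each of them and 6.45 to 24.3 between any other pair. The libraries also differed in the share of reads on the 25% of genes richest in GC, from 16.5% in siLSD1 replicate 3 to 21.3% in siLSD1 replicate 1. How both differences ran through the mitotic genes is given with their replicates.

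The mitotic genes were well expressed in these cells. On the scale of fragments per kilobase of gene length and scaled to library size (FPKM, as deposited), the median of the 54 tested genes was 30.2, against 9.20 for all genes tested. TPX2, which activates the kinase Aurora A on spindle microtubules, had the highest level, with 142 ± 8.37 FPKM in siCTR and 158 ± 14.4 FPKM in siLSD1 (SD, n = 3). TOP2A, the topoisomerase that untangles sister chromatids, followed with 135 ± 13.7 and 151 ± 23.1 FPKM (SD, n = 3). These 2 levels overlapped in the single libraries. The securin gene PTTG1, the kinase gene PLK1, the checkpoint target CDC20 and the contractile ring gene ANLN had means between 98.5 and 109 FPKM over the 6 libraries. The genes of the centromere and inner kinetochore lay lower, from 2.96 FPKM for CENPC to 35.9 FPKM for CENPA. The kinesin genes ranged from 20.5 FPKM for KIF14 to 79.9 FPKM for KIF20A, and the checkpoint genes from 12.2 FPKM for MAD1L1 to 103 FPKM for CDC20. PRC1 and NUSAP1, with 1.03 and 2.39 FPKM, were far below the other genes of the spindle midzone, and their reads are treated with the poorly counted genes.

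**Figure D1:**
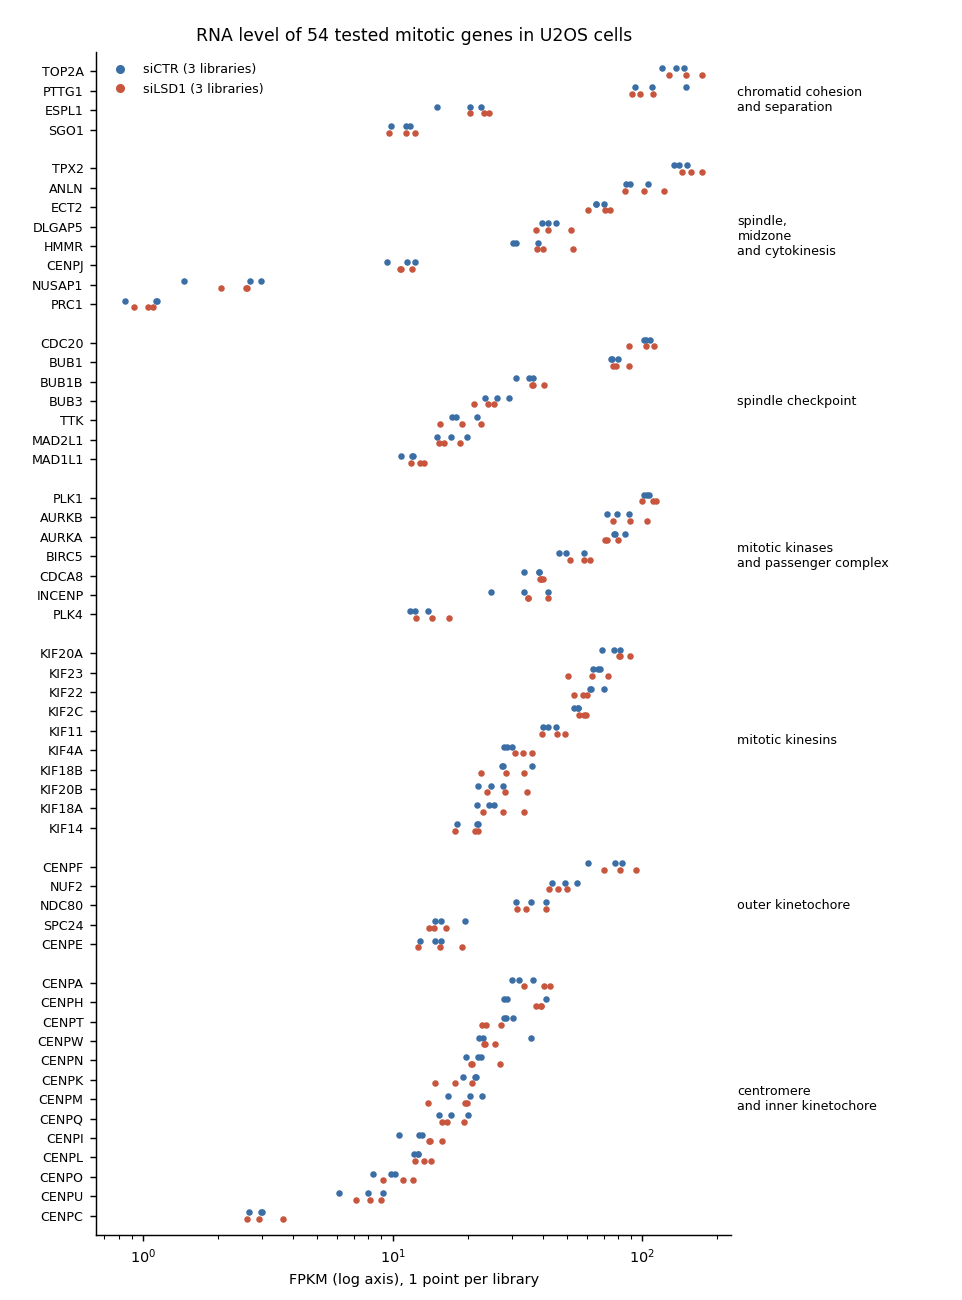
RNA level of each of the 54 tested mitotic genes, in FPKM on a log axis, grouped by role. Each point is 1 library, blue for siCTR and red for siLSD1. The 2 colours interleave for nearly every gene, and single libraries run from 0.85 FPKM for PRC1 to 174 FPKM for TOP2A.

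After knockdown of LSD1, the estimated change of every tested mitotic gene was within 0.39 of 0 on the log2 scale, a fold of at most 1.31. No tested member passed an adjusted p of 0.05 (quasi-likelihood test of edgeR, Benjamini-Hochberg over all genes tested), where 1.44% of all genes did. At an unadjusted p under 0.05, HMMR and CENPI were higher in siLSD1, which is 2 of 54 members (3.70%) where 7.48% of all genes were, and 0 members were lower where 6.55% of all genes were. DESeq2 gave 1 higher and 0 lower at the same threshold, where 7.04% and 6.13% of all genes were, and limma-voom gave 2 and 0, where 7.69% and 6.60% were. With 1 library left out, 1 to 5 members were higher, where 5.07% to 7.72% of all genes were, and 0 or 1 lower, where 3.79% to 7.43% were. The 5 were seen without siLSD1 replicate 1, where 6.79% of all genes were higher. With offsets for GC content and length, 10 were higher where 12.4% of all genes were, and 2 were lower where 11.9% of all genes were. In that fit HMMR and CENPH had a Benjamini-Hochberg adjusted p under 0.05 in edgeR, as did 873 of all genes tested. With the replicate number as a block, 5 were higher and 1 lower, where 10.3% and 11.2% of all genes were. With that block HMMR had a Benjamini-Hochberg adjusted p under 0.05 in edgeR, as did 897 of all genes tested. The fold changes ran from −0.24 for CENPT to 0.39 for HMMR on the log2 scale, with 35 genes above 0 and 19 below. The median was 0.08, against −0.01 for all genes tested, and it was 0.0027 without siLSD1 replicate 3. In all, 64.8% of members lay above 0, against 47.3% of all genes. Every siLSD1 library was above every siCTR library for CENPI and CDCA8, 2 members where 11.4% of all genes were so ordered, and below for CENPT and KIF22, 2 members where 9.97% of all genes were. In bulk RNA, a change in the share of cells in mitosis and a change in the RNA per mitotic cell cannot be told apart.

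How small a change could have been seen depended on the reads and on the spread between libraries. The SE was 0.14 for CENPF, with at least 8191 reads in every library, and 0.12 for CENPL, with at most 478. Of the 54 genes, 52 had at least 100 reads in every library. The 95% interval of the log2 fold change had a median half-width of 0.29, from 0.22 to 0.55. It lay inside −0.5 to 0.5 for 41 genes (75.9%, against 51.8% of all genes tested), inside −1 to 1 for all 54, and it included 0 for 52. For 5 genes the interval reached below −0.5, and for 9 genes above 0.5, so a change of that size was not excluded in those genes at this spread between replicates.

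**Figure D2:**
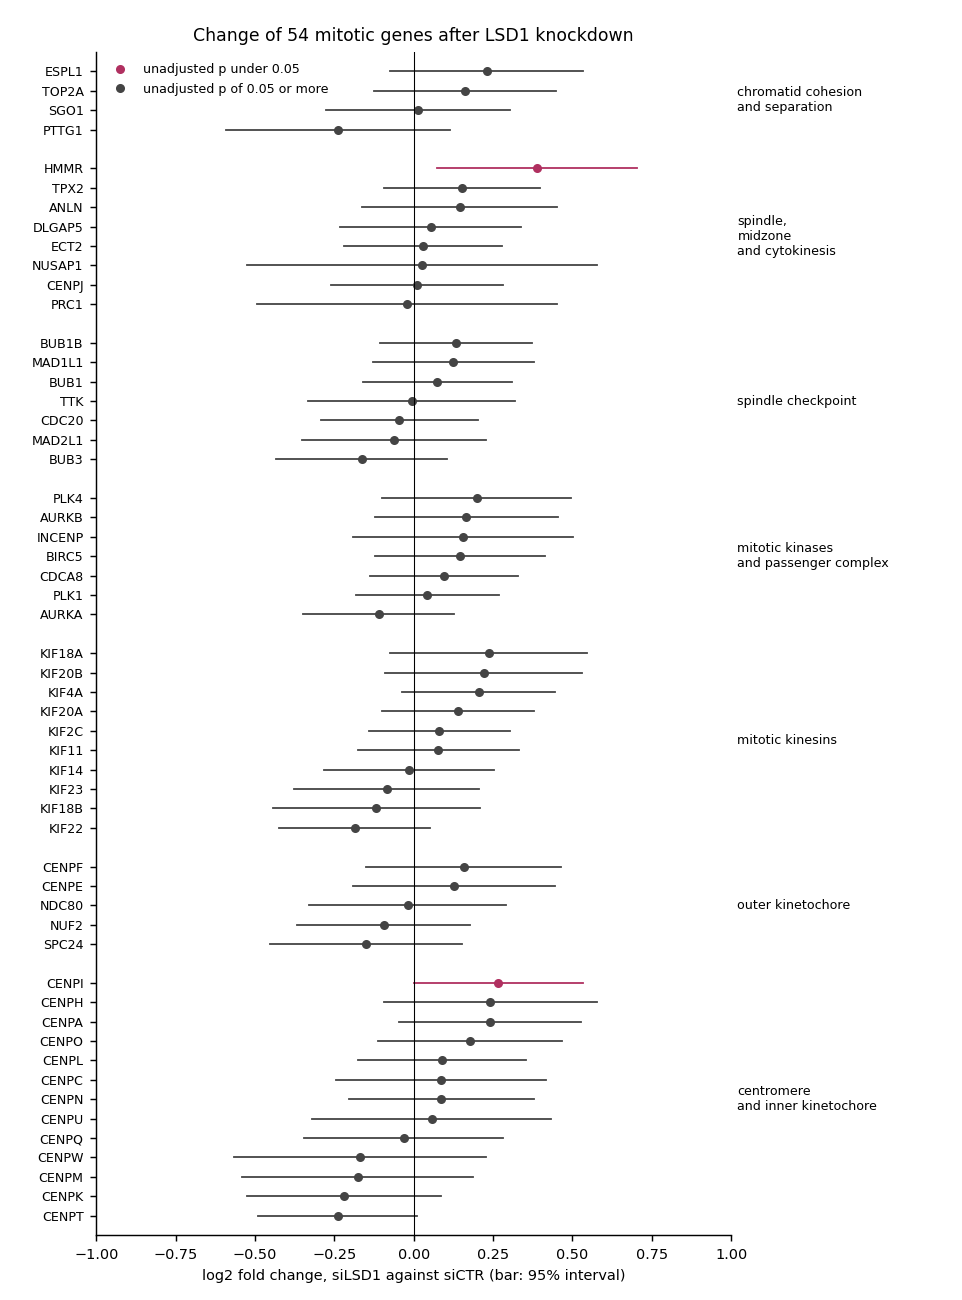
Log2 fold change of siLSD1 against siCTR for the 54 tested mitotic genes, by role. Points are estimates of edgeR's quasi-likelihood fit and bars are 95% intervals. HMMR and CENPI, in purple, are the 2 genes below an unadjusted p of 0.05, and the bars of the other 52 cross 0.

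The promoters of these genes were looked up in a set of RefSeq promoters (GRCh38.p14). It held 54 promoters of 48 of the listed genes, each from 250 bases before to 50 bases after a start site. The 48 include KIF15, which had no entry under its symbol in the deposited table. The promoters are shown because the genes share them as a regulatory feature that the choice of genes did not use. The CHR was searched as TTTGAA and TTCGAA on both strands and the CCAAT box as CCAAT on both strands. The words can share a base. In CDCA8 the last base of TTTGAA begins ATTGG, which is CCAAT on the other strand. The promoters with both words include such a case. The CHR was found in 38 of 54 promoters (70.4%) and in 16.4% of all 35116 promoters of the same length. CCAAT was found in 39 (72.2%) and in 34.6% of all promoters, and both words in 29 (53.7%) and in 6.38%. In 32 of the 54 promoters (59.3%), the CHR began between −50 and 50 bases from the start, where 0 is the first transcribed base. Of all promoters, 5.01% had it there. Windows of 30 bases around the CHR are given on the strand of the gene, 5′ to 3′, with the CHR in capitals. They were chosen to show genes of each role, the doubled word of HMMR and KIF20B, and the BUB1 and KIF22 form with a central CG.
HMMR: aatgtggggagaTTTGAATTTGAAaccggt
KIF20B: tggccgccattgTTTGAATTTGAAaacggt
CENPA: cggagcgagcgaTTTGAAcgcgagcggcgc
NUF2: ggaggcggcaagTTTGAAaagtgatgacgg
KIF4A: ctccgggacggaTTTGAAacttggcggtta
KIF22: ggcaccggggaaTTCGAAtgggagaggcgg
PLK1: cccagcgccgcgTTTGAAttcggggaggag
CDCA8: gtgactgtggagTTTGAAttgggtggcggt
CDC20: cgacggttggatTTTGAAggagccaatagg
BUB1: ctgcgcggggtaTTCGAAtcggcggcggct
BUB1B: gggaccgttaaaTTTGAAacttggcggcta
PRC1: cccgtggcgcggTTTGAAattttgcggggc
ESPL1: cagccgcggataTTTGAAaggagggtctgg

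On GRCh38.p14 these windows lie at chr5:163460592-163460621 (+ strand, HMMR), chr10:89701602-89701631 (+, KIF20B), chr2:26786026-26786055 (+, CENPA), chr1:163321958-163321987 (+, NUF2), chrX:70290058-70290087 (+, KIF4A), chr16:29790712-29790741 (+, KIF22) and chr16:23678848-23678877 (+, PLK1). The others lie at chr1:37692481-37692510 (+, CDCA8), chr1:43358904-43358933 (+, CDC20), chr2:110678045-110678074 (− strand, BUB1), chr15:40161034-40161063 (+, BUB1B), chr15:90994538-90994567 (−, PRC1) and chr12:53268256-53268285 (+, ESPL1). The first base of the CHR was at −28 in HMMR, −29 in PLK1, −34 in KIF4A, −27 in KIF22, −23 in BUB1B, −20 in PRC1, −18 in CENPA, −65 in CDC20, 1 in BUB1, 16 in NUF2 and 24 in KIF20B. The 33 tested genes with a CHR in a promoter had a median of 0.08 in log2 fold change, from −0.19 to 0.39, with 23 above 0. The 12 tested genes whose promoters lacked it had a median of 0.07, from −0.24 to 0.27, with 7 above 0. The promoters of CENPI and CENPT, at the higher and the lower end of the inner kinetochore genes, held neither word in this window. The same was true of CENPE, KIF2C and MAD1L1, with log2 fold changes of 0.13, 0.08 and 0.13.

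**Figure D3:**
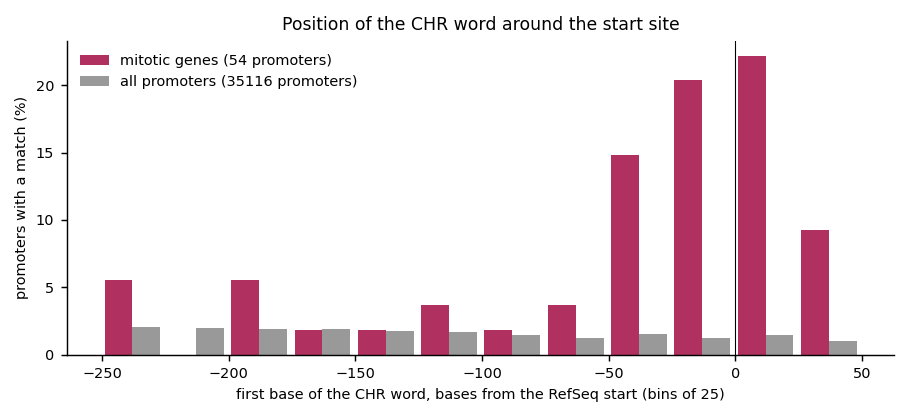
Position of the first base of the CHR word around the RefSeq start, in bins of 25 bases, as the percent of promoters with a match in each bin. Purple bars are the 54 promoters of mitotic genes and grey bars all 35116 promoters. The purple bars are tallest in the 4 bins between −50 and 50, at 9.26% to 22.2%, where the grey bars are near 1%.

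Of the 13 genes of the centromere and inner kinetochore, 8 had a log2 fold change above 0 and 5 below, with a median of 0.09. CENPI (chromosome X, 101098188 to 101166126, + strand, GRCh38) is a subunit of the complex that links CENP-A chromatin to the outer layer. It was at 49.2, 41.0 and 48.6 CPM in siCTR and 53.2, 53.5 and 60.2 CPM in siLSD1. The groups did not overlap, and siCTR replicate 2 was the lowest library. The log2 fold change was 0.27 (SE 0.12), with an unadjusted p of 0.0499 and an adjusted p of 0.356 in edgeR after Benjamini-Hochberg adjustment. The unadjusted p was above 0.05 whichever library was left out (0.0521 to 0.138). CENPT (chromosome 16, 67828157 to 67847811, − strand), a histone-fold protein that recruits the NDC80 complex, had the lowest fold change of all members. Its levels were 71.7, 68.5 and 66.7 CPM in siCTR and 64.2, 56.5 and 54.6 CPM in siLSD1. All 3 siLSD1 libraries were below the siCTR libraries, with a log2 fold change of −0.24 (SE 0.12) and a Benjamini-Hochberg adjusted p = 0.374 in edgeR. CENPT shared 20.2% of its exonic bases with genes on the other strand (NUTF2, THAP11 and TSNAXIP1), and whether strand was used in the counting is not given in the sources used here.

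CENPA encodes the centromeric histone itself. It was at 46.1, 53.8 and 43.6 CPM in siCTR and 61.7, 58.8 and 49.2 CPM in siLSD1, a log2 fold change of 0.24 (SE 0.13), and siLSD1 replicate 3 lay below siCTR replicate 2. CENPH, a partner of CENPI, was at 38.4, 58.2 and 39.8 CPM in siCTR and 51.8, 54.8 and 54.7 CPM in siLSD1, also 0.24 (SE 0.16). In that gene siCTR replicate 2 was the highest of the 6 libraries and the other siCTR libraries were the lowest. The log2 fold change was 0.46 without siCTR replicate 2, 0.13 without siCTR replicate 1 and 0.15 without siCTR replicate 3. The Benjamini-Hochberg adjusted p in edgeR was 0.511, and 0.043 with offsets for GC content and length. CENPK, of the same subcomplex, went the other way, with 48.1, 55.4 and 54.1 CPM in siCTR and 37.1, 45.3 and 53.0 CPM in siLSD1 (log2 fold change −0.22, SE 0.14). Leaving out siLSD1 replicate 1 gave −0.10 for CENPK, and leaving out siLSD1 replicate 3 gave −0.35. CENPM was at 22.5, 31.7 and 27.8 CPM in siCTR and at 26.3, 27.2 and 19.1 CPM in siLSD1 (−0.18, SE 0.17), and its groups overlapped. Its log2 fold change was −0.06 without siCTR replicate 2 and −0.03 without siLSD1 replicate 3. The remaining genes of this layer were CENPO (0.18), CENPL and CENPC (0.09 each), CENPN (0.09), CENPU (0.06), CENPQ (−0.03) and CENPW (−0.17). CENPW, the histone-fold partner of CENPT, had 370 reads in siCTR replicate 2 and 233 to 276 reads in the other 5 libraries, and its log2 fold change was 0.10 without that replicate.

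Of the 5 tested genes of the outer kinetochore, 2 were above 0 and 3 below, with a median log2 fold change of −0.02. NDC80, NUF2 and SPC24 encode subunits of the microtubule-binding NDC80 complex and had log2 fold changes of −0.02, −0.09 and −0.15, each with an interval that included 0. The value of SPC24 was −0.0036 without siCTR replicate 2. CENPF, a large coiled-coil protein of the outer layer, was the most abundant of the group. It was at 794, 638 and 861 CPM in siCTR and 722.5, 849 and 985.5 CPM in siLSD1, with a log2 fold change of 0.16 (SE 0.14). The lowest and the highest of its libraries were siCTR replicate 2 and siLSD1 replicate 3, and the log2 fold change was 0.05 without the former and 0.04 without the latter. The motor gene CENPE had a log2 fold change of 0.13 (SE 0.15), with 1441 to 1802 reads in siCTR and 1442 to 2219 reads in siLSD1.

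Of the 10 tested kinesin genes, 6 were above 0 and 4 below, with a median of 0.08. KIF18A, which dampens the movements of chromosomes at the metaphase plate, had the largest fold change of the group, with 76.7, 88.1 and 90.7 CPM in siCTR and 81.7, 99.0 and 120.2 CPM in siLSD1 (log2 fold change 0.24, SE 0.14). The groups overlapped through siLSD1 replicate 1, and the log2 fold change was 0.36 without that library and 0.09 without siLSD1 replicate 3. KIF20A, which brings the chromosomal passenger complex to the midzone and had the highest level per length, was at 245, 224 and 261.5 CPM in siCTR and 258, 259 and 288 CPM in siLSD1 (0.14, SE 0.11). KIF22 (chromosome 16, 29790727 to 29805385, + strand), a motor that pushes chromosome arms toward the spindle equator, was at 171, 199 and 174.5 CPM in siCTR and 166, 162 and 149.8 CPM in siLSD1. All siLSD1 libraries were below all siCTR libraries, with a log2 fold change of −0.19 (SE 0.11) and a Benjamini-Hochberg adjusted p = 0.475 in edgeR. The abscission motor KIF20B had a log2 fold change of 0.22 (SE 0.14) and the chromosome-bound motor KIF4A one of 0.20 (SE 0.11). KIF11, the motor that separates the spindle poles, was at 0.08, and so was KIF2C, which depolymerizes microtubules at centromeres. Leaving out siLSD1 replicate 1 gave 0.17 for KIF11, and leaving out siLSD1 replicate 3 gave 0.0041. KIF14 (−0.02), the centralspindlin motor KIF23 (−0.09) and KIF18B (−0.12) were below 0.

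Among the 7 mitotic kinases and passenger complex genes, 6 were above 0 and AURKA was below, with a median log2 fold change of 0.15. PLK1, the Polo-like kinase needed for bipolar spindles, had the highest level of the group and little spread. It was at 235, 229.5 and 234 CPM in siCTR and 250.1, 247 and 223 CPM in siLSD1, with a log2 fold change of 0.04 and a 95% interval from −0.18 to 0.27. PLK4, which starts centriole duplication, was at 46.3, 49.5 and 55.4 CPM in siCTR and 49.0, 57.5 and 67.1 CPM in siLSD1 (0.20, SE 0.14). The passenger complex consists of the kinase Aurora B and its partners. The genes of its 4 subunits were all above 0, with 0.17 for AURKB, 0.16 for INCENP, 0.15 for BIRC5 (survivin) and 0.09 for CDCA8 (borealin), and none had an interval that excluded 0. INCENP turned to −0.01 without siCTR replicate 2, where it had 1278 reads against 1733 to 2203 in the other libraries. CDCA8 (chromosome 1, 37692481 to 37709719, + strand) was at 94.1, 84.2 and 94.9 CPM in siCTR and 95.6, 97.0 and 99.2 CPM in siLSD1. The groups did not overlap, but the highest siCTR and the lowest siLSD1 library were less than 1 CPM apart. AURKA, the kinase of the spindle poles, had a log2 fold change of −0.11 (SE 0.11).

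The median log2 fold change of the 7 spindle checkpoint genes was −0.01, with 3 above 0 and 4 below. CDC20, the activator of the anaphase promoting complex that the checkpoint holds back, had the highest level per length (FPKM), though not in CPM, where BUB1 was higher. It was at 184, 199 and 188 CPM in siCTR and 202, 190.3 and 162 CPM in siLSD1, so that its highest and its lowest libraries were both in siLSD1. The log2 fold change of CDC20 was −0.04, with a 95% interval from −0.29 to 0.20. BUB3, which anchors the checkpoint kinases at kinetochores, had the largest difference of the group, with 182, 233 and 205 CPM in siCTR and 164, 189.5 and 200.1 CPM in siLSD1 (−0.16, SE 0.12). The others were BUB1B (0.13), MAD1L1 (0.13), the kinase gene BUB1 (0.07), the kinase gene TTK (−0.01) and MAD2L1 (−0.06). MAD1L1 shared 43.2% of its exonic bases with another annotated gene on the same strand.

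The spindle, midzone and cytokinesis genes included the highest fold change of all members. Of these 8 genes, 7 were above 0 and 1 below, with a median of 0.04. HMMR (chromosome 5, 163460203 to 163491941, + strand), a spindle-associated protein that also binds hyaluronan, was at 98.8, 104 and 125 CPM in siCTR and 123, 132 and 174 CPM in siLSD1. The groups overlapped between siCTR replicate 3 and siLSD1 replicate 1, and siLSD1 replicate 3 was the highest library. The log2 fold change was 0.39 (SE 0.15), with an unadjusted p of 0.0194 and an adjusted p of 0.243 in edgeR after Benjamini-Hochberg adjustment. The fold change was 0.22 without siLSD1 replicate 3, and the unadjusted p was 0.115 there, 0.0651 without siCTR replicate 1 and 0.0559 without siCTR replicate 2. With offsets for GC content and length, the Benjamini-Hochberg adjusted p in edgeR was 0.0223, in a fit that called 12.4% of all genes higher at an unadjusted p under 0.05. The adjusted p in edgeR was also under 0.05 with the replicate number as a block, where 10.3% of all genes were called higher.

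TPX2, the most abundant of the group, was at 479, 515 and 544 CPM in siCTR and 515.5, 566 and 627 CPM in siLSD1 (log2 fold change 0.15, SE 0.11), with overlap of the groups. ANLN, which organizes the contractile ring, had a log2 fold change of 0.15 (SE 0.14). It had 5346 to 6793 reads in siCTR and 5443 to 7964 in siLSD1. The microtubule-bundling gene DLGAP5 (0.05), ECT2 (0.03), which activates the GTPase that drives the contractile ring, and the centriole gene CENPJ (0.01) had smaller log2 fold changes.

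The 4 tested genes of chromatid cohesion and separation had a median of 0.09, with 3 above 0 and 1 below. TOP2A was at 775, 703 and 849 CPM in siCTR and 729, 866 and 1007 CPM in siLSD1 (log2 fold change 0.16, SE 0.13). PTTG1, securin, holds the protease separase inactive until anaphase. It was at 106, 174 and 126.5 CPM in siCTR and 104, 113 and 128 CPM in siLSD1, with a log2 fold change of −0.24 (SE 0.16). The siCTR replicate 2 library stood above the other 5, which lay between 104 and 128 CPM, and without it the log2 fold change was −0.02. PTTG1 has near-identical copies elsewhere in the genome, and how reads shared with them were counted is not given in the sources used here. ESPL1, which encodes separase, had a log2 fold change of 0.23 (SE 0.14), with 1308 reads in siCTR replicate 2 and 1819 to 2152 in the other libraries, and 0.09 without that replicate. SGO1, the protector of centromeric cohesion, was at 0.01 (SE 0.13).

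Several members were counted poorly or not at all. SPC25, a subunit of the NDC80 complex, had 0 reads in each siCTR library and 3, 2 and 3 reads in siLSD1, and 8 reads in all where a second deposited counting of the same libraries gave 45. Its partner SPC24 had 407 to 589 reads in each library. KIFC1, a minus-end-directed motor, had at most 1 read in any library. Neither SPC25 nor KIFC1 passed the filter, and no fold is given for them. KIF15, a motor that can stand in for KIF11, was not found under that symbol, and its RNA was not analysed here. Only its promoter and its exons were examined. PRC1, which crosslinks microtubules in the midzone, had 46 to 63 reads, and NUSAP1, a microtubule-bundling protein, 48 to 95 reads. Their log2 fold changes were −0.02 (SE 0.22) and 0.03 (SE 0.26), the widest errors of the members. In GENCODE, PRC1 shared 61.9% of its exonic bases with PRC1-AS1 and ENSG00000284946. NUSAP1 shared 86.8% with ENSG00000285920, OIP5 and OIP5-AS1. Of 57 genes, 35 shared no exonic base with another gene and the next highest share after PRC1 was 43.2%, in MAD1L1. Whether the sharing lowered these counts was not tested. The second counting gave 1.36 times as many reads for PRC1, 1.16 times for NUSAP1 and 1.23 times for SPC24, against a median of 1.10 times over 55 members.

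The median deviation of the 54 genes from their own mean over all libraries, on the log2 CPM scale, was −0.08, −0.01 and 0.02 for siCTR replicates 1, 2 and 3 and −0.07, 0.04 and 0.16 for siLSD1 replicates 1, 2 and 3. The siLSD1 range thus held 2 of the siCTR values, and siLSD1 replicate 3 stood highest. By transcript length, siCTR replicate 2 had a median deviation of 0.18 in the 18 shortest genes, −0.05 in the 18 of middle length and −0.16 in the 18 longest. Across the 54 genes, its difference from the mean of siCTR replicates 1 and 3 had a Spearman correlation of −0.64 with log2 transcript length, and across all genes tested −0.48. Without siCTR replicate 2 the log2 fold change was −0.07 for BUB3, −0.11 for KIF22, −0.05 for AURKA, 0.11 for CENPO and 0.09 for KIF20A. The short genes CENPW and PTTG1 were high in that library, and the long gene CENPF was low. Between siLSD1 replicates 3 and 1, the difference had a Spearman correlation of −0.84 with GC content across the 54 genes and −0.73 across all genes. KIF18B, with 58.4% GC, was lower in replicate 3, and HMMR, with 36.2% GC, was higher. Without siLSD1 replicate 3 the log2 fold change was 0.0014 for ANLN, 0.04 for TOP2A, 0.08 for TPX2, 0.08 for PLK4, 0.07 for KIF20B and −0.04 for CENPE. For the difference between the group means, the correlations across the 54 genes were −0.07 with GC content and 0.24 with length. These are descriptions across genes that share the same libraries and are not independent replicates.

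**Figure D4:**
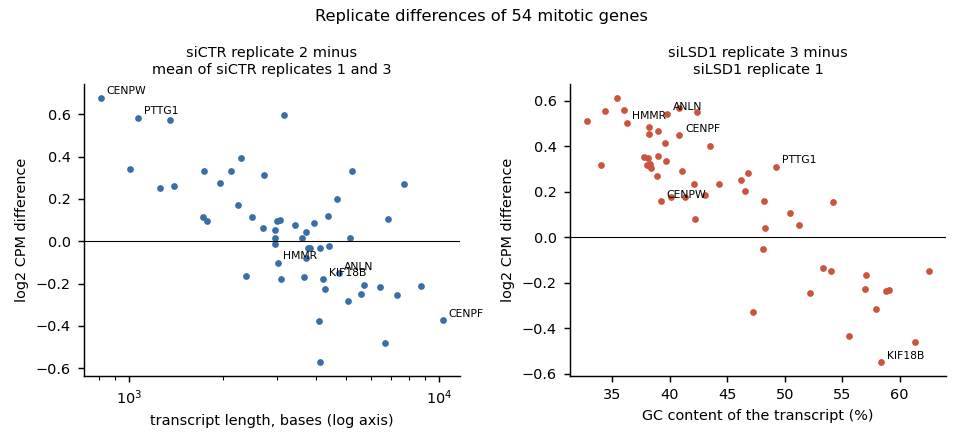
Differences between replicates for the 54 tested mitotic genes, 1 point per gene. Left, log2 CPM of siCTR replicate 2 minus the mean of siCTR replicates 1 and 3, against transcript length on a log axis. Right, log2 CPM of siLSD1 replicate 3 minus replicate 1, against GC content of the transcript. Both clouds slope downward, with Spearman correlations of −0.64 and −0.84.

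The surrounding pathway genes were read from the same fit, with no test of the lists. Of 23 tested kinetochore genes outside the members, 12 were above 0 and 11 below (median 0.01). ZW10, which brings the dynein motor and the checkpoint to kinetochores, was at 44.5, 45.9 and 48.7 CPM in siCTR and 61.9, 71.2 and 74.9 CPM in siLSD1. It rose by 0.58 on the log2 scale (SE 0.12, Benjamini-Hochberg adjusted p = 0.0317 in edgeR). This adjusted p in edgeR was 0.0397 without siLSD1 replicate 1 and 0.0787 to 0.182 without any other library. At an unadjusted p under 0.05, SKA2 was higher (0.40), and CENPX (−0.49) and PMF1 (−0.47) were lower. Of 37 other spindle and cytokinesis genes, 18 were above 0 and 19 below (median −0.01). NUMA1 (0.42), NEDD1 (0.32) and CEP152 (0.28) were higher at the unadjusted threshold, and TUBG1 (−0.30), a core component of microtubule nucleation, was lower. Among these, the CPM of NUMA1 was 172 in siCTR replicate 2 and 267 to 339 in the other libraries.

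Of 20 genes of the anaphase promoting complex and its regulators, 7 were above 0 and 13 below (median −0.12), and MAD2L1BP was lower at the unadjusted threshold (−0.34). Of 20 mitotic entry genes, 10 were above 0 and 10 below (median 0.03), with none past that threshold. CDK1, the kinase that drives entry into mitosis, was at 249 to 353 CPM in siCTR and 249.6 to 319 CPM in siLSD1 (−0.10, SE 0.14). Its cyclins CCNB1 and CCNB2 had log2 fold changes of −0.13 and 0.07. The activators FOXM1 and MYBL2, which switch on the genes of late cell cycle, had higher levels in every siLSD1 library than in any siCTR library, with log2 fold changes of 0.22 (SE 0.11) and 0.20 (SE 0.11) and unadjusted p-values in edgeR of 0.0688 and 0.0815. Of the same list, GTSE1 (0.26) was also higher in every siLSD1 library and LIN54 (−0.23), a MuvB subunit, lower in every siLSD1 library, with unadjusted p-values in edgeR of 0.0524 and 0.0669. These 2 were named after their values were seen. Such an order was found upward in 3 and downward in 1 of the 20 genes, and in 11.4% and 9.97% of all genes tested. The proliferation marker MKI67 was at 667, 358 and 643 CPM in siCTR and 632, 627.5 and 725 CPM in siLSD1, and siCTR replicate 2 was the low one.

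Of 20 cohesin and condensin genes, 18 were above 0 and 2 below, with a median of 0.09 and SMC1A (0.37) higher at the unadjusted threshold. Of 23 genes of the G1/S transition, 8 were above 0 and 15 below (median −0.07). CCND1, cyclin D1, was at 200.3, 172 and 201 CPM in siCTR and 126, 120.0 and 116 CPM in siLSD1. It fell by 0.67 on the log2 scale (SE 0.11, Benjamini-Hochberg adjusted p = 0.0113 in edgeR). The same adjusted p from edgeR was 0.0618 without siCTR replicate 3 and 0.0902 without siLSD1 replicate 2. At the unadjusted threshold CCNE1 (−0.39), CCNE2 (−0.45) and MCM4 (−0.26) were lower. The plot of gene lists sets these beside the members.

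**Figure D5:**
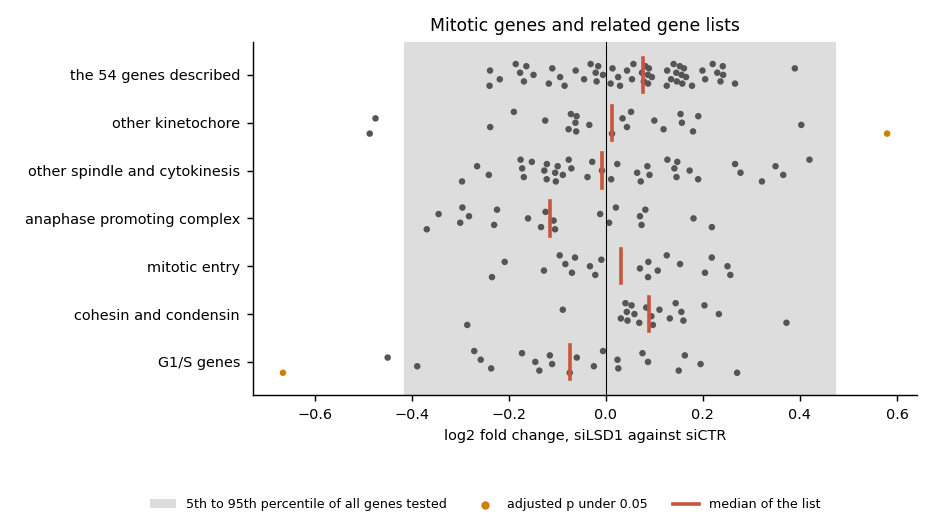
Log2 fold change of siLSD1 against siCTR for the 54 mitotic genes and 6 related lists, 1 point per gene, with the median of each list as a red line. The grey band holds the values of all genes tested from the 5th to the 95th percentile. All 54 members lie inside the band, and ZW10 and CCND1, in orange, are the 2 genes with an adjusted p under 0.05.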

How the data were processed

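RNA-seq libraries of U2OS cells, 3 with control siRNA and 3 with LSD1 siRNA, were grouped by their labels. The authors aligned clean reads with STAR, as the submitters' processing notes and the methods state, and deposited read counts per gene without normalization. The authors also deposited FPKM values, which are scaled to gene length and library size and were used for levels only. The genome build, annotation and read counter behind the files are not given in the sources used here. Further deposited tables hold a second counting for each pair of libraries with the same number. The authors' fold changes and p-values, made with DESeq2, were not used.

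Counts were scaled with TMM, filtered with filterByExpr (minimum count 10) and tested with the quasi-likelihood test in edgeR 4.0.16 under R 4.3.3, with no covariates and Benjamini-Hochberg adjustment over 11844 of 15585 genes. The biological coefficient of variation was 12.6%. CPM values are TMM-scaled. The alternatives were DESeq2 1.42.0, voom in limma 3.58.1, library sizes without TMM, testing without a filter or with at least 1 CPM in 3 libraries, the replicate number as a block, each library omitted in turn, the second counting, and offsets for GC content and length (lowess, span 0.3), which were known for 99.3% of tested genes. The procedure was tested on simulated data. Python 3.11.15 with pandas 2.3.3 was used for the remaining steps.

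Coordinates, transcript lengths, GC content and shared exons are from GENCODE on GRCh38 and not from the authors' files. Of 15585 genes, 15346 matched a GENCODE symbol, 383 of them through a synonym. Promoters are from a set of RefSeq promoters, and the set used held none for AURKA, BIRC5, BUB3, CENPH, CENPJ, CENPL, CENPM, TPX2 and TTK.

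The members, role groups and related lists were chosen with earlier results of these data known. All members are named. Values per library are given for members with an unadjusted p under 0.05, for the 5 highest and 5 lowest fold changes, and for the most abundant and the most changed gene of each role group. Of each related list, genes with an unadjusted p under 0.05 are named, beside CDK1, CCNB1, CCNB2, FOXM1, MYBL2 and MKI67. A marker gene and a gene of a related list are not reported here. CDCA8 and the reads of other members were added after their values were seen.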

Additional observations from a re-analysis of the deposited data

How the results depend on the processing

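The counts of called members, their median, and the fold changes of the members, KDM1A, ZW10 and CCND1 were recomputed under 14 alternatives. The median log2 fold change of the members stayed above 0 in all of them, between 0.0027 without siLSD1 replicate 3 and 0.1098 without siLSD1 replicate 1. The number of members higher at an unadjusted p under 0.05 (2 as reported) was 1 with scaling by library size only, 1 with no filter, 1 with DESeq2, 5 with the replicate block and 10 with offsets for GC content and length, and 1 to 5 with 1 library left out. Over all genes tested, 10.3% were higher and 11.2% lower with the replicate block. CENPI was the gene lost without a filter, with library size only and with DESeq2. The higher genes were KIF18A, KIF20B, KIF4A, PLK4 and HMMR without siLSD1 replicate 1, and CENPA, CENPH, KIF4A and BIRC5 without siCTR replicate 2. The number lower (0 as reported) was 1 with the replicate block, 1 with the second counting, 2 with GC content and length (CENPT and KIF22), and 0 to 1 with 1 library left out. The number with an adjusted p under 0.05 (0 as reported) was 1 with the replicate block and 2 with GC content and length, where 171 of all genes became 897 and 873. The 2 were HMMR and CENPH, with Benjamini-Hochberg adjusted p-values in edgeR of 0.0223 and 0.043, and HMMR had 0.0209 with the block. The cause of these shifts was not tested. Libraries with the same replicate number had correlations of their deviations of 0.33, 0.07 and 0.31, so the numbers were not taken as pairs, although every library correlated best with its own number. Of 54 members, 33 kept their direction in all alternatives and 21 did not. With GC content and length, log2 fold changes turned to 0.0811 for CENPQ, 0.0439 for NDC80, 0.0353 for CDC20 and −0.0163 for CENPJ. With the second counting, they turned to 0.0012 for NDC80, 0.0082 for TTK and 0.0137 for PRC1.

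With 1 library left out, the lowest and highest log2 fold changes of the genes that turned were −0.1134 and 0.0421 for CDC20, −0.0646 and 0.1943 for CENPC, −0.0375 and 0.2676 for CENPE, −0.0761 and 0.0896 for CENPJ, −0.0539 and 0.1590 for CENPN, −0.1275 and 0.0902 for CENPQ, and −0.0952 and 0.1924 for CENPU. They were −0.2946 and 0.0982 for CENPW, −0.0867 and 0.1588 for DLGAP5, −0.0329 and 0.1182 for ECT2, −0.0110 and 0.3410 for INCENP, −0.0926 and 0.0787 for KIF14, −0.2539 and 0.0177 for KIF18B, and −0.2178 and 0.0498 for KIF23. For the rest they were −0.1625 and 0.0578 for MAD2L1, −0.1403 and 0.1013 for NDC80, −0.1813 and 0.0048 for NUF2, −0.2344 and 0.2346 for NUSAP1, −0.1361 and 0.0514 for PRC1, −0.0689 and 0.1068 for SGO1, and −0.1519 and 0.1282 for TTK. PRC1 and NUSAP1 had under 100 reads in each library, and their standard errors were the widest of the members.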
